A study of Mus musculus with 4 samples.

Results

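The respiratory chain genes were the protein-coding genes of the FPKM table whose symbol began with Nduf (complex I), Uqcr (complex III), Cox4 to Cox8 (complex IV), Atp5 (complex V, the ATP synthase) or mt- (the mitochondrial genome). This name rule found 100 of the 23552 genes in the table, 87 encoded in the nucleus and 13 in the mitochondrion, and used no measured value. Of these, 96 reached a mean FPKM of 0.5 and were tested (84 nuclear and 12 mitochondrial). Left untested were Cox4i2, Cox8b, Ndufa4l2 and mt-Atp8. In GENCODE M21, 3 further genes meet the rule (Cox7b2, Cox8c and a further gene ID for Atp5o) and were not analysed here. The rule also takes in genes that are no subunits, among them the 8 Ndufaf assembly factors of complex I, the ATP synthase accessory gene Atp5s and the supercomplex factor Cox7a2l.

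The respiratory chain sits in the inner mitochondrial membrane. Complexes I, III and IV pass electrons from NADH to oxygen and pump protons, and complex V uses the proton gradient to make ATP. Each of these complexes is built from products of both genomes: nuclear subunits are made in the cytosol and imported, whereas a handful of core subunits are made inside the organelle from polycistronic transcripts of the mitochondrial genome. Oxidative metabolism is a known feature of leukemia stem cells, which is one reason to look at these genes in c-Kit+ leukemic cells.

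RNA-Seq was done on c-Kit+ leukemic cells enriched from the bone marrow of moribund C57BL/6 mice, in which the MLL-AF9 fusion had induced acute myeloid leukemia (AML). Cells of both groups carried the MLL-AF9 fusion and an eGFP lentivirus. The 2 control libraries (replicates 3 and 4) are labelled control-eGFP overexpression, and the 2 SUV-OE libraries (replicates 2 and 3) Suv39h1-eGFP overexpression. All 4 libraries carry the batch 2 label, and no age is given in the labels. Suv39h1 encodes a histone H3 lysine 9 methyltransferase, and its own FPKM was 12.4 in each control library against 75.3 and 81.2 in SUV-OE (log2 fold change 2.56, standard error 0.11, limma adjusted p = 0.00866). By the methods, the virus was put into serially transplanted leukemia cells and eGFP+ cells were sorted, so both groups descend from passaged leukemia rather than from separate primary transformations. No label says whether the libraries of a group came from separate mice, so the p-values measure only the spread between these libraries.

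The libraries were of like depth but did not stand equally close. Reads recovered from the FPKM steps, over genes that gave whole reads, ran from 11849533 to 13805463 per library, and 3 reads on 1 kb of exons were worth 0.154 to 0.178 FPKM, a floor for counting error alone. Across the tested respiratory chain genes on the log2(FPKM + 1) scale, the SUV-OE libraries had a Pearson r of 0.998 with each other, while the control libraries had 0.964, the lowest of any pair. These values are across genes, which are not independent replicates. The 5 leukemic progenitor markers were present, and did not lie one way. Kit, at an FPKM of 20.4 and 19.2 in control against 28.6 and 25.4 in SUV-OE, and Meis1 were above control in both SUV-OE libraries, Hoxa9 and Mpo (369 and 349 against 292 and 337) were below, and Cd34 overlapped. Of 10 neutrophil markers, 8 were above control in both SUV-OE libraries, as were 25.4% of all tested genes, with a summed FPKM of 2536 and 4155 in control against 8205 and 10110 in SUV-OE, and Ltf was a DEG (log2 fold change 2.95, limma adjusted p = 0.0434). Of 9 tested B-lymphoid markers, 8 were likewise above (sums of 21.1 and 29.4 against 40.8 and 92.8), as were 6 of 7 monocyte, 5 of 10 erythroid, 3 of 5 megakaryocyte and 3 of 5 mast and basophil markers. Of the endothelial list only Pecam1 was tested, and it was also a DEG (log2 fold change 1.72, limma adjusted p = 0.0405); of the T and NK list 1 gene was tested, and its groups overlapped. By ratio, the summed erythroid FPKM differed most of these lists between the controls, at 15.2 and 141 against 103 and 72.1 in SUV-OE. Of 9 proliferation markers, 8 were below (28.4% of all tested genes), with sums of 1130 and 1014 in control against 763 and 862 in SUV-OE. None of the marker genes was at 0 in all libraries. The part of these cell type and proliferation differences in the values below was not tested. In bulk RNA, fewer cells of a type and less RNA per cell cannot be told apart.

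Some sequences bear on how the values below can be read. The first 90 bases of mt-Co2, a complex IV core subunit of the mitochondrial genome (chrM:7013-7102, plus strand), are shown with those of its copies on the nuclear chromosomes, Gm28661 (chr1:24615476-24615565, minus strand) and Gm13341 (chr2:22587873-22587962, minus strand), all annotated in GENCODE M21 (GRCm38). Capitals mark bases that differ from mt-Co2.
mt-Co2: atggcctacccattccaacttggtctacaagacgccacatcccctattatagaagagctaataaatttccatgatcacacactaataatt
Gm28661: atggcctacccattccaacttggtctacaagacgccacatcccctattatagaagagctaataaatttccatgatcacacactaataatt
Gm13341: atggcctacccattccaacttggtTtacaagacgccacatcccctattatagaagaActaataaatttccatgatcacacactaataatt
No base differed between mt-Co2 and Gm28661 over 681 aligned bases of 684, so a read from one fits the other equally well. Gm13341 carried C25T and G57A, counted from the first base shown (mt-Co2 first), and was 95.9% identical overall.

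For the nuclear genes, promoters from RefSeq (GRCm38.p6, 250 bases before to 50 after the annotated start) were searched on both strands for 3 motifs of known regulators of respiratory genes: NRF1 (CGCATGCG), the ETS motif bound by GABPA (CCGGAAG) and YY1 (AAGATGGCG). A promoter was found for 69 of the 84 tested nuclear genes. Of the 74 promoters of these genes, 14.9% held the NRF1 motif against 1.87% of all 32851 promoters in the table, 21.6% held the ETS motif against 8.86%, and 10.8% held the YY1 motif against 1.40%. The promoters shown are those of Ndufb6, an accessory subunit of complex I and the member with the lowest log2 fold change (chr4:40279372-40279671, minus strand), of Atp5l, subunit g of the ATP synthase and the gene with most motif matches among those whose SUV-OE libraries were both below control, chosen after its values were seen (chr9:44920693-44920992, minus strand), and of Cox7a1, the heart and muscle form of a complex IV subunit and the member with the highest log2 fold change (chr7:30183921-30184220, plus strand). Capitals mark the motifs.
Ndufb6: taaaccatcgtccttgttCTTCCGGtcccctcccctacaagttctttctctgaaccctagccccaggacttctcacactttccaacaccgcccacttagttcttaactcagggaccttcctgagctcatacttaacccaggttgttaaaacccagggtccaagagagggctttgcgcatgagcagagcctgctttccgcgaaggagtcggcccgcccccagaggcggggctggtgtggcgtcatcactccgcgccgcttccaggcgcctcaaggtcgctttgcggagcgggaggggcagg
Atp5l: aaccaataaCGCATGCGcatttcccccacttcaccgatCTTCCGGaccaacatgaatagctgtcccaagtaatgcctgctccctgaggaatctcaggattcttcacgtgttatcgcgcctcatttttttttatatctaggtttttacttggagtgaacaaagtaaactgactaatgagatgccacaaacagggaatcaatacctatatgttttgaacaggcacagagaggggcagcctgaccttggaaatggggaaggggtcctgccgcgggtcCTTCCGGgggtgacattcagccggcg
Cox7a1: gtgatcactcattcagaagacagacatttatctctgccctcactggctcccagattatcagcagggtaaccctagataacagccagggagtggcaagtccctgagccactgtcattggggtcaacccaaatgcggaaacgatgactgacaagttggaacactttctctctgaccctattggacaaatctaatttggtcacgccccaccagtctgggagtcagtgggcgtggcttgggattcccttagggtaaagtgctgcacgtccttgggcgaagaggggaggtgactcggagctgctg
Ndufb6 held 1 ETS match, Atp5l held 1 NRF1 and 2 ETS matches, and Cox7a1 held none. Among the 32 matched nuclear genes that were below in both SUV-OE libraries, 8 held the NRF1 motif, 6 the ETS motif and 3 the YY1 motif, where 11, 16 and 8 of all 69 matched genes did. A match here describes letters in a window, not a bound site.

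No respiratory chain gene was a DEG (limma adjusted p under 0.05 with a log2 fold change of 1 or more either way), where 1.22% of the 13736 tested genes were. At any fold change 0 of the 96 tested genes had an adjusted p under 0.05, against 1.29% of all tested genes. At an unadjusted p under 0.05 there were 13 of 96, all of them lower in SUV-OE, against 10.4% of all tested genes lower and 10.3% higher. With limma-voom on the recovered reads, 2 of 95 passed an adjusted p under 0.05 against 6.19% of all genes in that fit, and both were lower in SUV-OE (1.84% of all genes in that direction). None of the 95 was also a DEG in that fit, where 4.68% of all genes were. They were Ndufb6 (ENSMUSG00000071014, chromosome 4, 40270591 to 40279421 in mm10, minus strand; log2 fold change -0.80, limma-voom adjusted p = 0.0301) and Atp5g2, a gene of the c ring of the ATP synthase (ENSMUSG00000062683, chromosome 15, 102662864 to 102672352, minus strand; -0.63, limma-voom adjusted p = 0.0499).

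Below that threshold, the nuclear and mitochondrial genes differed in how the libraries lay. Of the 84 nuclear genes, 75 had a log2 fold change under 0 (53.0% of all tested genes did), with a median of -0.29 and an interquartile range of -0.40 to -0.13, beside a median of -0.02 over all tested genes. A gene is called below where each SUV-OE library was under each control library, and above in the converse case. By this count 36 nuclear genes (42.9%) were below in both SUV-OE libraries against 28.4% of all tested genes, and 2 were above (Cox6b2 and Atp5s) against 25.4%. Of the 12 mitochondrial genes, 6 were lower and 6 higher. Their median log2 fold change was 0.03, and the groups overlapped in each of the 12, where 46.1% of all tested genes overlapped.

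**Figure D1:**
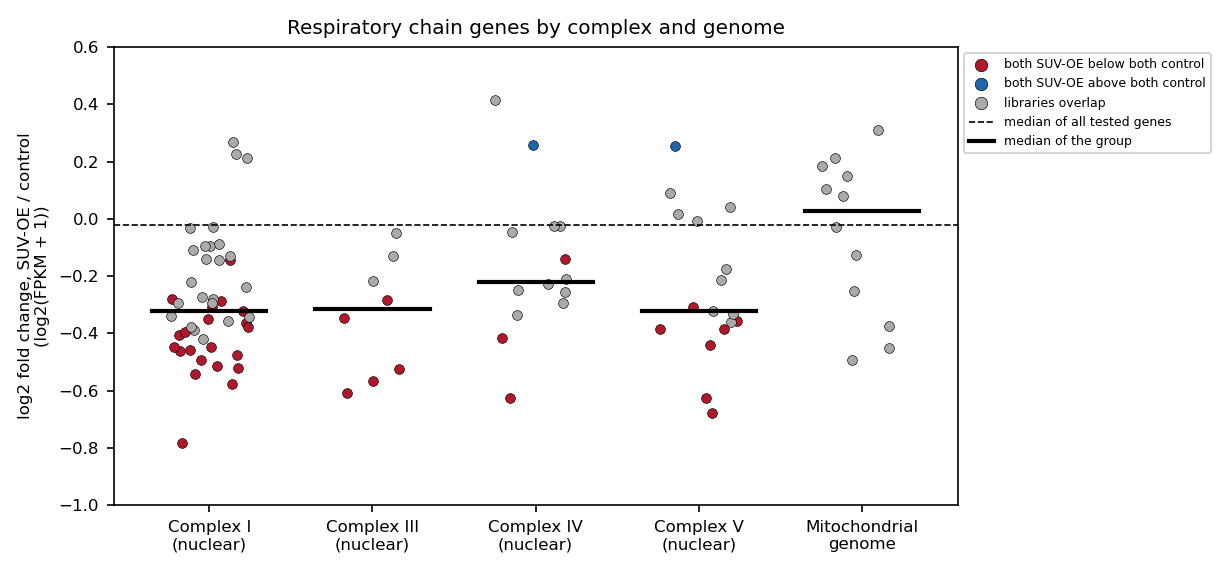
Log2 fold changes of the 96 tested respiratory chain genes (y axis, SUV-OE over control on the log2(FPKM + 1) scale) by complex for the nuclear genes and for the mitochondrial genome. Each point is a gene, coloured by whether the libraries of the groups overlap, thick lines are group medians and the dashed line is the median of all tested genes. The nuclear medians lie between -0.32 and -0.22, the mitochondrial one at 0.03.

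In complex I, the NADH dehydrogenase, 42 of 45 tested nuclear genes had a lower mean in SUV-OE and 21 (46.7%) were below in both SUV-OE libraries. Of all tested genes, 53.0% had a lower mean and 28.4% were below. The median log2 fold change of the 45 genes was -0.32, and it was -0.56 without control 3 and -0.09 without control 4. The lowest was Ndufb6, at an FPKM of 52.1 and 52.4 in control against 29.1 and 30.8 in SUV-OE. Its groups stood well apart and its replicates agreed closely (log2 fold change -0.78, standard error 0.11, limma adjusted p = 0.0585). The next of the subunits by the naming rule was Ndufc2, a membrane arm subunit, at 101 and 151 in control against 75.3 and 90.1 in SUV-OE. Here the control libraries differed more from each other than the nearest control and SUV-OE libraries did (log2 fold change -0.58, standard error 0.24, limma adjusted p = 0.266).

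The 7 nuclear catalytic core subunits of complex I, which hold its flavin and iron-sulfur clusters, were all lower in SUV-OE by their means. Of these, 6 were below in both SUV-OE libraries, against 28.4% of all tested genes. The 7 subunits were picked out after their values were seen. Ndufv1, which carries the NADH binding site, was at 51.2 and 46.2 in control against 32.4 and 35.05 in SUV-OE (log2 fold change -0.51, standard error 0.12, limma adjusted p = 0.131). Ndufs8, an iron-sulfur subunit, was at 91.4 and 117 against 67.0 and 76.7 (-0.52, standard error 0.18, limma adjusted p = 0.204). In these genes the lowest control library stayed above the highest SUV-OE library. The exception was Ndufs1, the largest of the core subunits, at 8.58 and 11.0 in control against 8.71 and 9.44 in SUV-OE, where the groups overlapped. For these 7 subunits the control libraries did not differ one way (median of control 4 minus control 3 of -0.07 on the log2(FPKM + 1) scale). Single values ran from -0.19 in Ndufs3 to 0.45 in Ndufv2. For the 29 other subunits control 4 was higher by a median of 0.51, and 11 (37.9%) had both SUV-OE libraries below. The 8 assembly factors, which do not stay in the finished complex, were all lower by their means (median -0.26), with 4 below in both libraries.

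Only 3 nuclear complex I genes had a log2 fold change over 0, and in none did the groups separate. Ndufa3 was at 46.3 and 155 in control against 85.7 and 115 in SUV-OE, so that both SUV-OE libraries lay between the control libraries. Ndufab1, the mitochondrial acyl carrier protein, was at 1.82 and 4.31 against 3.69 and 3.63, and its pseudogene copies share sequence with it. The third was Ndufb2, an accessory subunit, at 0.585 and 1.24 against 1.15 and 1.22, named after its values were seen. Ndufa1, a small membrane subunit with the highest mean FPKM of the nuclear complex I genes, was at 113 and 248 against 142 and 173 (log2 fold change -0.10). Its position, control 3 lowest and control 4 highest, recurred in 27 of the 84 nuclear genes (1236 of the 13736 tested genes had it).

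**Figure D2:**
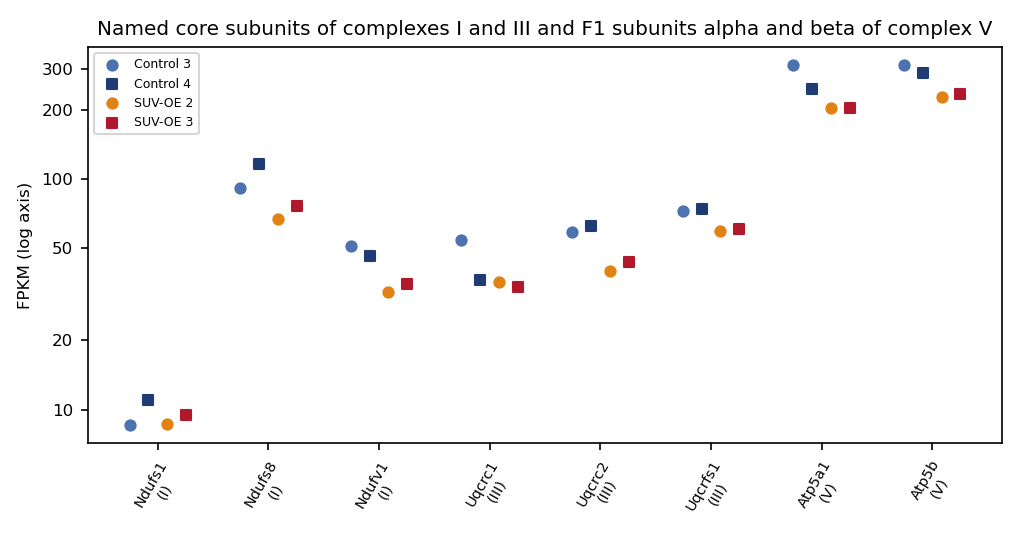
FPKM (log axis) in each of the 4 libraries for the core subunits of complexes I and III named in the text and the alpha and beta subunits of the F1 part of complex V. In 7 of these 8 genes the SUV-OE libraries lie under both controls, and Ndufs1 is the exception.

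In complex III, which takes electrons from ubiquinol to cytochrome c, all 8 nuclear genes had a lower mean in SUV-OE. Their median log2 fold change was -0.32, and -0.58 without control 3. In 5 of the 8 (62.5%) both SUV-OE libraries were below. Of all tested genes, 53.0% had a lower mean and 28.4% were below. Uqcrc2, a core protein named after its values were seen, was at 59.0 and 62.4 in control against 39.9 and 43.8 in SUV-OE (log2 fold change -0.53, standard error 0.12, limma adjusted p = 0.124). Uqcrfs1, the Rieske iron-sulfur protein and also named afterwards, was at 72.5 and 74.4 against 59.7 and 60.5 (-0.28, standard error 0.12, limma adjusted p = 0.261). The other core protein, Uqcrc1, separated by little, with control 4 at 36.6 close to the SUV-OE libraries at 35.8 and 34.0 and control 3 at 54.6. Among the small subunits, Uqcrq was at 64.7 and 92.1 against 45.6 and 55.2 (-0.61, standard error 0.22, limma adjusted p = 0.217) and Uqcr10 at 135 and 210 against 101 and 128 (-0.57, standard error 0.27, limma adjusted p = 0.311). Uqcrb and Uqcrh, also small, had the SUV-OE libraries between the controls: Uqcrb was at 55.6 and 141 against 70.1 and 93.3, and Uqcrh at 63.1 and 132 against 80.6 and 96.8.

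Complex IV, cytochrome c oxidase, had the smallest share of separated genes. Of 14 tested nuclear genes, 12 had a lower mean, 3 had both SUV-OE libraries below and 1 had both above, and 0 had an unadjusted p under 0.05, where 28.4% of all tested genes were below and 20.7% passed that p in either direction. The median log2 fold change was -0.22, and it was 0.18 without control 4, -0.34 without control 3 and -0.076 without SUV-OE 2. Cox5a, a subunit on the matrix side, was at 65.9 and 42.0 in control against 31.3 and 36.4 in SUV-OE (-0.63, standard error 0.24, limma adjusted p = 0.244). Cox5b, a zinc-binding subunit, was at 126 and 178 against 102 and 123. Cox6a1 was the third that lay below, by the least of them, at 329 and 351 against 294 and 323 (-0.14, standard error 0.17, limma adjusted p = 0.681). Complex IV exchanges several subunits between tissue forms, and the common form was the abundant one in each pair measured here. Cox4i1 was at 118 and 143 in control against 128 and 127 in SUV-OE, whereas its lung form Cox4i2 was at or under 0.286 in every library. Cox8a had the highest mean of the nuclear complex IV genes, at 290 and 454 against 318 and 389, and its muscle form Cox8b was listed at 0 in both control libraries and at 0.156 and 0.311 in SUV-OE. Cox6a2, the muscle counterpart of Cox6a1, was at 1.36 and 0.349 against 0.580 and 0.414. Cox7a2 was at 116 and 227 against 126 and 151, and Cox7a1 at 2.59 and 5.54 against 5.79 and 5.15. The exception was the testis form Cox6b2, which was not low: it was at 48.2 and 67.1 in control against 69.2 and 67.1 in SUV-OE, with both SUV-OE libraries above both controls, SUV-OE 3 by under 0.1 FPKM (log2 fold change 0.26, standard error 0.19, limma adjusted p = 0.496). Its common form Cox6b1 was at 145 and 308 against 164 and 203. Ndufa4, first placed in complex I and now in complex IV, was at 84.9 and 151 against 83.8 and 104, and its paralog Ndufa4l2 was at or under 0.107 throughout.

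In the ATP synthase, 13 of 17 tested nuclear genes had a lower mean in SUV-OE, 7 (41.2%) had both libraries below and 1 had both above. Of all tested genes, 53.0% had a lower mean, 28.4% were below and 25.4% above. The median log2 fold change of the 17 genes was -0.32, and it was -0.59 without control 3 and -0.031 without control 4. Of the F1 part, which makes ATP, the alpha subunit Atp5a1 was at 311 and 246 in control against 204 and 203 in SUV-OE, and the beta subunit Atp5b at 312 and 289 against 227 and 232; both were named after their values were seen. Their log2 fold changes were -0.44 and -0.38 (limma adjusted p = 0.272 and 0.269). The delta subunit of the same part, Atp5d, was at 64.2 and 54.6 against 64.8 and 61.4, so that the members of the F1 part did not all lie the same way. The c ring, which turns in the membrane, is encoded by 3 genes that give the same mature protein, and in each the SUV-OE libraries lay below both controls. Atp5g1 was at 23.6 and 23.7 in control against 18.6 and 19.2 in SUV-OE (-0.31, standard error 0.10, limma adjusted p = 0.206). Atp5g2 was at 117 and 135 against 77.1 and 85.7 (-0.63, standard error 0.15, limma adjusted p = 0.130). Atp5g3 was at 81.9 and 77.7 against 58.6 and 63.2 (-0.38, standard error 0.12, limma adjusted p = 0.190). No control library of the 3 genes came within the range of SUV-OE. Atp5l had the lowest log2 fold change of complex V, at 267 and 328 against 171 and 200 (-0.68, standard error 0.19, limma adjusted p = 0.163). Atp5mpl, a small proteolipid and the nuclear gene with the highest mean FPKM, was at 214 and 551 against 311 and 389, again with SUV-OE between the controls. Atp5s, which is not a subunit, was at 6.30 and 8.02 against 8.84 and 8.52. Near-identical copies elsewhere in the genome (at least 95% identity over at least 50% of the transcript) were found for 16 tested nuclear genes, among them Atp5g1, Atp5g2 and Atp5l with 9 copies, and reads of such genes could be split. Of the 68 without such a copy, 30 had both SUV-OE libraries below both controls, and their median log2 fold change was -0.29.

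The protein-coding genes of the mitochondrial genome contributed 2.65% and 4.33% of all FPKM in control against 3.32% and 3.27% in SUV-OE, so the SUV-OE libraries lay between the controls. mt-Co1, the catalytic subunit of complex IV, was the highest of these genes, at an FPKM of 3937 and 6190 in control against 3980 and 4322 in SUV-OE. Next by mean came mt-Nd1 of complex I, at 1873 and 4294 against 2006 and 2142, and then mt-Cytb, the only complex III subunit of this genome, at 1439 and 2822 against 1883 and 2075. Each had control 3 lowest and control 4 highest. The same order of extremes held for 11 of the 12 tested genes. mt-Nd2 was at 571 and 1306 against 887 and 975, mt-Nd4 at 525 and 1270 against 890 and 1006, and mt-Nd5 at 634 and 926 against 901 and 801. All 3 encode proton-pumping subunits in the membrane arm of complex I. mt-Nd6, encoded on the other strand from the rest, was at 293 and 640 against 526 and 547; the library kit does not mark strand, so its reads cannot be told from antisense transcripts. The exception to the order was mt-Nd4l, at 7.10 and 14.6 against 7.78 and 6.25. Control 4 exceeded control 3 by 1.46-fold to 4.23-fold in these genes (median 2.29), whereas SUV-OE 3 over SUV-OE 2 ran from 0.803 to 1.40.

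**Figure D3:**
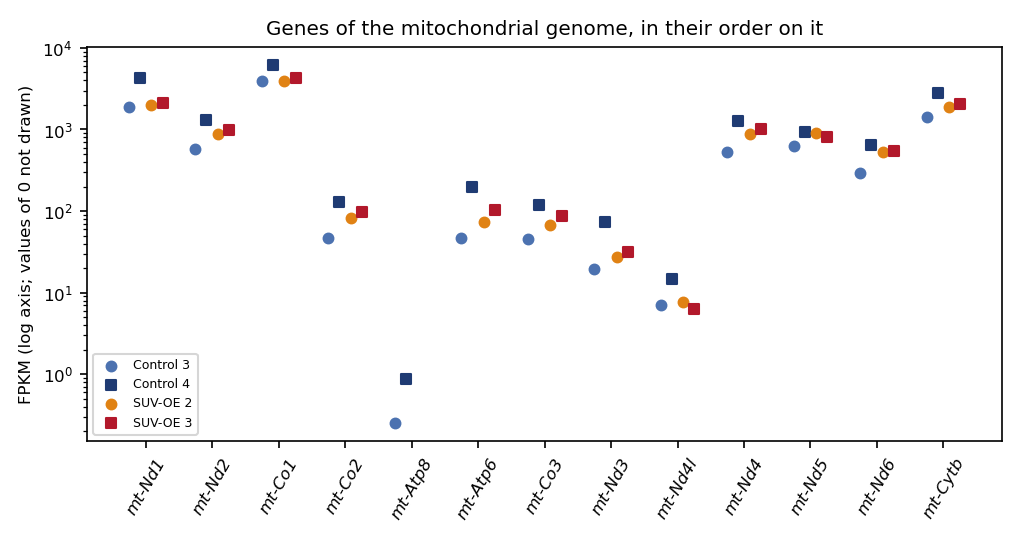
FPKM (log axis) in each library for the 13 protein-coding genes of the mitochondrial genome, in their order along it. Control 4 is the highest library in every gene, and the genes from mt-Co2 to mt-Nd4l lie at or under 195 while the others lie between 293 and 6190.

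The level along the mitochondrial genome was uneven, although the heavy strand is transcribed as long precursors. The 5 genes mt-Co2, mt-Atp6, mt-Co3, mt-Nd3 and mt-Nd4l, which lie between positions 7013 and 10173 of chrM, had FPKM of 6.25 to 195 over the 4 libraries. The other 7 tested genes had 293 to 6190, and no library of one set reached the range of the other. mt-Atp8, whose 204 bases lie among the low genes and overlap mt-Atp6, was at 0.252 and 0.872 in control and was listed at 0 in both SUV-OE libraries. The 5 low genes are those with a nuclear copy of at least 99% identity over at least 80% of their length, all on chromosome 1, minus strand. The copies of mt-Co3 and mt-Co2 were listed at levels like those of the genes themselves. Gm28437, identical to mt-Co3 over 783 of 784 bases, was at 47.8 and 120 in control against 68.8 and 88.3 in SUV-OE, where mt-Co3 was at 44.9 and 118 and at 67.9 and 87.2. Gm28661 was at 55.1 and 122 against 76.7 and 89.7, where mt-Co2 was at 47.4 and 128 against 81.5 and 96.6. Gm10925, identical to mt-Atp6 over 678 of 681 bases, was listed higher than the gene in every library, at 170 and 278 against 150 and 179, where mt-Atp6 was at 46.2 and 195 against 73.7 and 103. mt-Nd3 was at 19.4 and 74.3 against 27.4 and 31.2, and its copy Gm28438 at 12.1 and 56.0 against 35.9 and 47.6. By contrast Gm28439, a copy of only the first part of mt-Nd4, was low where mt-Nd4 itself was high. Another partial copy, Gm29216, which aligned with 483 bases of mt-Co1 at 99.8% identity, was at 34.7 and 137 in control against 79.2 and 98.0 in SUV-OE. There mt-Co1 was at 3937 and 6190 against 3980 and 4322. Whether shared reads set the levels of the 5 genes was not tested. Without them the mitochondrial median log2 fold change was 0.11.

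**Figure D4:**
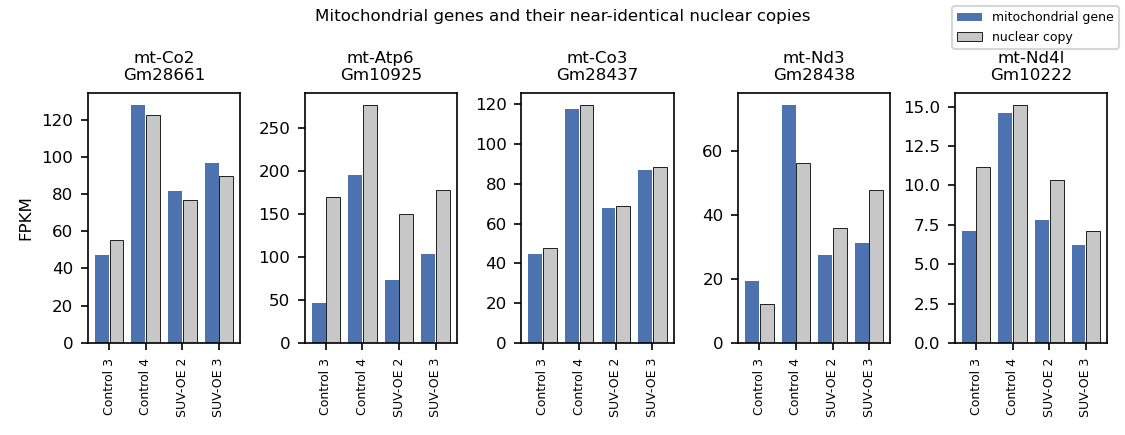
FPKM in each library for the 5 mitochondrial genes with a near-identical copy on chromosome 1 (blue) and for that copy (grey), each panel with its own axis from 0. Gene and copy follow the same order of libraries most closely in mt-Co3, where they differ by under 3 FPKM in every library.

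The gap between the control libraries exceeded the difference between the groups in most of these genes. Control 4 was above control 3 in 70 of 84 nuclear genes and in 12 of 12 mitochondrial genes, against 49.9% of all tested genes. The median of control 4 minus control 3 on the log2(FPKM + 1) scale was 0.48 for nuclear genes, 1.19 for mitochondrial genes and 0 for all tested genes, and between the SUV-OE libraries it was 0.21 for the nuclear genes. In 56 of the 84 nuclear genes (66.7%) the gap between the controls was larger than the absolute log2 fold change, against 50.9% of all tested genes. Set against control 3 alone, SUV-OE had a median log2 fold change of -0.06 in the nuclear genes and 0.64 in the mitochondrial genes, and set against control 4 alone it was -0.57 and -0.55. Both SUV-OE libraries were below control 4 in 79 nuclear and 12 mitochondrial genes, against 43.4% of all tested genes. They were above control 3 in 30 nuclear genes (35.7%) and 11 mitochondrial genes, against 40.3% of all tested genes, and below it in 37 nuclear genes (44.0%), against 43.7% of all tested genes. The ratio of summed mitochondrial to summed nuclear FPKM was 1.48 and 1.94 in control against 1.95 and 1.80 in SUV-OE. So the direction of the mitochondrial genes turned on which control library was used. For the nuclear genes the size of the difference did, and against control 3 alone their share below was that of all tested genes to within 1 percentage point. In complex IV the direction turned as well, with a median of 0.18 against control 3 alone and -0.34 against control 4 alone.

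That gap was larger in genes with a short coding sequence. Over the 84 nuclear genes, Spearman's rho between the longest annotated coding sequence and control 4 minus control 3 was -0.648, and over 10957 tested nuclear protein-coding genes it was -0.296; both are descriptions across genes of the same libraries. The 22 nuclear members with up to 300 coding bases had a median gap of 0.91 and a median log2 fold change of -0.22, and 2 of them (9.09%) had both SUV-OE libraries below both controls, against 30.1% of all 236 such genes. The 40 members of 300 to 600 bases had a gap of 0.47 and a log2 fold change of -0.32, with 17 below (42.5% against 37.3%). The 13 members of 600 to 1200 bases had a gap of 0.30 and a log2 fold change of -0.36, with 9 below (69.2% against 37.7%). The 9 members over 1200 bases had a gap of -0.07 and a log2 fold change of -0.38, with 8 below (88.9% against 26.9%). These gaps are medians of signed values. Among the 9, single values ran from -0.57 in Uqcrc1 to 0.60 in Ndufv3, and control 4 was above control 3 in 3. Short genes of the chain thus differed most between the controls, and the separation from SUV-OE was most frequent in the long ones.

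**Figure D5:**
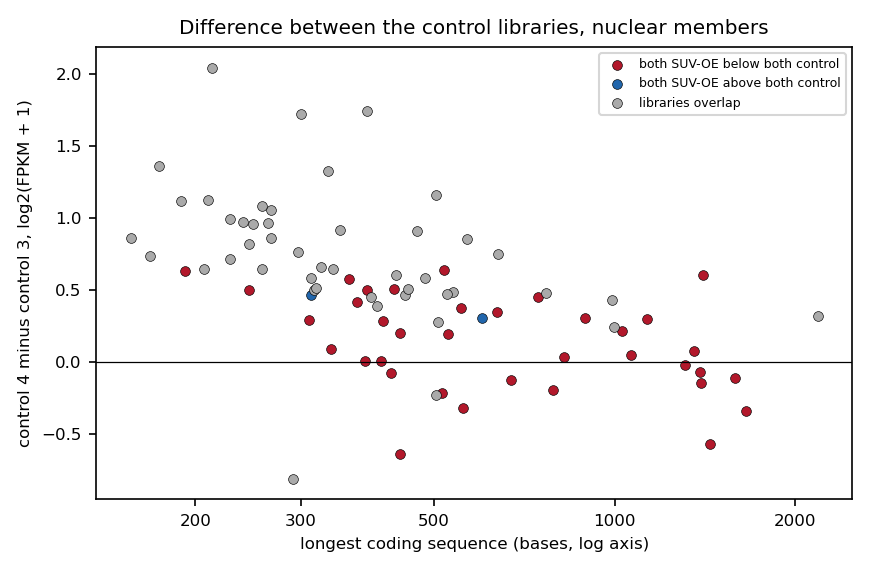
Control 4 minus control 3 on the log2(FPKM + 1) scale (y axis) against the longest coding sequence in bases (log axis) for the 84 tested nuclear genes, coloured by whether the libraries of the groups overlap. The median signed gap goes from 0.91 at up to 300 bases to -0.07 over 1200 bases. The genes with both SUV-OE libraries below both controls are mostly those with a small gap.

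Most lists of pathway genes outside the name rule had a median log2 fold change under 0, and none held a gene with a limma adjusted p under 0.05. Of all tested genes, 53.0% had a lower mean, 28.4% were below in both SUV-OE libraries and 10.4% had an unadjusted p under 0.05 in that direction. Complex II, which links the citric acid cycle to the chain and is wholly nuclear, had both SUV-OE libraries below both controls in 4 of 4 genes (median log2 fold change -0.30). Sdhd, a membrane anchor, was at 118 and 136 in control against 81.9 and 89.3 in SUV-OE (-0.56, standard error 0.15, limma adjusted p = 0.148). The flavoprotein Sdha was at 105 and 93.7 against 82.5 and 82.0, the iron-sulfur subunit Sdhb at 32.0 and 39.4 against 25.2 and 30.5, and the anchor Sdhc at 19.99 and 21.4 against 19.9 and 19.5, the last by a margin under 1 FPKM. Cycs, cytochrome c, was at 54.2 and 71.5 against 38.1 and 51.3, and Cyc1, cytochrome c1 of complex III, at 105 and 69.4 against 70.8 and 68.5, where the groups overlapped. Of 14 citric acid cycle genes, 14 had a lower mean and 13 had both libraries below (median -0.30). Of 77 tested genes of the mitochondrial ribosome, which translates the mitochondrial subunits, 71 had a lower mean and 54 both libraries below (median -0.33), and 25 had an unadjusted p under 0.05 in that direction. Of 20 tested complex IV assembly factors, 17 were lower by their means and 10 in both libraries. The assembly factors of complex I outside the rule were lower by their means in 7 of 8, with 4 below. Those of complex III did not share the direction: 2 of 6 were lower by their means, 0 were below and 2 above (median 0.0034). Of the small lists, 2 of 4 complex II assembly factors and 2 of 2 for complex V were lower by their means.

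Genes that express or regulate the mitochondrial genome had medians between those of the nuclear members and of all genes. Of 21 genes of mitochondrial DNA expression, 10 (47.6%) had both SUV-OE libraries below and 2 above (median -0.14). Of all tested genes, 28.4% were below and 25.4% above. Tfam, which packages mitochondrial DNA and starts its transcription, was at 10.6 and 11.8 in control against 9.52 and 9.58 in SUV-OE (-0.21, standard error 0.11, limma adjusted p = 0.369). The polymerase Polrmt was at 8.25 and 7.32 against 7.83 and 6.81, the transcription factor Tfb2m at 11.8 and 12.8 against 10.03 and 9.35, and the RNA-binding protein Lrpprc at 15.4 and 14.7 against 13.7 and 13.7. The rRNA methyltransferase Tfb1m, named after its values were seen, was the lowest of the list, at 10.4 and 10.8 against 6.71 and 6.15 (-0.64, standard error 0.11, limma adjusted p = 0.0840). Among the 8 tested regulators of respiratory genes, the median log2 fold change was -0.10. Both SUV-OE libraries were below in 2 of the 8 (25%), a share near the 28.4% of all tested genes. One of them was the coactivator Ppargc1b, at 1.60 and 1.59 against 0.876 and 0.930 (-0.45, standard error 0.15, limma adjusted p = 0.196), and the other was Gabpa, the DNA-binding part of the ETS factor above, at 16.6 and 17 against 16.6 and 15.4, a separation of under 0.1 FPKM. Nrf1 was at 6.46 and 5.57 against 5.25 and 5.72, Esrra at 24.3 and 20.2 against 20.3 and 17.2, Pprc1 at 10.3 and 9.53 against 9.68 and 8.93, and Yy1 at 60.3 and 47.1 against 49.4 and 48.1. In these 4 the groups overlapped. Ppargc1a was at or under 0.120 in every library and was not tested.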

How the data were processed

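RNA-Seq libraries were prepared with the TruSeq kit, sequenced as paired ends and aligned to mm10 with TopHat2; CASAVA 1.8 is also listed in the submitters' processing notes. Deposited values were FPKM by gene, 1 for each library, for which the methods name Cufflinks; the annotation release is not given in the sources used here. With exon lengths from GENCODE M21, the FPKM gave whole reads in all 4 libraries (tolerance 0.01) for 78.5% of genes and for 74 of the 100 members. Symbols came from GENCODE M21, which matched 23438 of 23552 gene IDs.

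log2(FPKM + 1) was compared with limma 3.58.1 (R 4.3.3), with group as the only term, an intensity trend and Benjamini-Hochberg adjustment over 13736 genes (mean FPKM 0.5 or more). Fold changes on this scale understate the change of low genes. The test was checked on simulated data. That simulation had larger changes than those of the members and less spread than between these control libraries. So it does not show how the test performs at the changes and spread seen here. DESeq2, used by the authors for DEGs, needs counts. With 2 libraries against 2, lists were described by counts and medians only. Copies were sought with blastn 2.17.0 among GENCODE transcripts.

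Genes named by rule were the mitochondrial genes, the 2 highest and 2 lowest log2 fold changes and the highest mean FPKM per complex, isoform families, complex II, electron carriers and named regulators. The members and lists were chosen with earlier results of these data known. Figures were drawn with matplotlib 3.10.9. The values of 1 gene are not reported here.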

Additional observations from a re-analysis of the deposited data

How the results depend on the processing

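No paired analysis was possible because fewer than 2 replicate numbers occur in both groups. No respiratory chain gene became a DEG under any of the 13 alternatives. The count at an adjusted p under 0.05 was 0 in each of them except limma-voom on recovered reads, where it was 2. Leaving out each library in turn (the lone library of a group was assumed to vary like the other group), the nuclear median log2 fold change ran from -0.57 (without control 3) to -0.062 (without control 4), and the mitochondrial one from -0.55 (without control 3) to 0.64 (without control 4). The nuclear genes with SUV-OE below control ran from 36 to 79 and the mitochondrial ones from 0 to 12, the highest without control 3 in both; with no filter on low values, the mitochondrial count was 1 (mt-Atp8). By complex, the leave-one-out medians ran from -0.56 to -0.09 for complex I, -0.58 to -0.26 for complex III, -0.34 to 0.18 for complex IV and -0.59 to -0.031 for complex V. Under quantile normalization the medians were -0.15 for complex I, -0.16 for complex III, -0.045 for complex IV and -0.15 for complex V. Quantile normalization gave a nuclear median of -0.14 with 25 of 84 genes below, a share near the 28.4% of all tested genes in the main fit. The share of all genes under that setting is not given here. Rescaling to equal nuclear totals gave a nuclear median of -0.20 with 35 below. Of the 40 tested genes named by rule, the sign of the fold change differed from the main value in 9 under quantile normalization and 6 under equal nuclear totals, and in 2 to 15 when a library was left out. The other settings (a pseudocount of 0.1, no filter, a mean FPKM of at least 1, median-of-ratios scaling, no trend, a robust trend and limma-voom) changed no sign among the named genes tested in them. The mitochondrial median without genes that have a near-identical copy was added after seeing the data. The cause of these shifts was not tested.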

Other observations

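Other RNAs of the mitochondrial genome had the same extremes among the libraries only in part. The small rRNA mt-Rnr1 was listed at an FPKM of 205 and 469 in control against 326 and 416 in SUV-OE, between the controls in both libraries. The large rRNA mt-Rnr2 was at 191 and 486 against 351 and 575, with SUV-OE 3 the highest. The proline tRNA gene mt-Tp was at 317 and 969 against 671 and 671. None of these RNAs is among the 100 genes.

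A pair of nuclear complex I subunits was listed at low levels. Their annotated exons are long beside their coding sequences, 6883 bases against 468 for Ndufab1 and 5628 against 315 for Ndufb2. FPKM is per exon length. Recovered reads of Ndufb2 were 64 and 118 in control against 115 and 122 in SUV-OE. Those of Ndufab1 were 244 and 500 against 451 and 444. Atp5l, with 6443 exon bases and 309 coding bases, was at an FPKM of 267 and 328 against 171 and 200. Whether exon length sets the low levels was not tested. Ndufb2 was at 0.585 and 1.24 in control against 1.15 and 1.22 in SUV-OE, and Ndufab1 at 1.82 and 4.31 against 3.69 and 3.63, while 74 of the 84 tested nuclear genes had a mean FPKM over 10. Both were noticed after their values were seen. For Ndufab1, 2 copies with at least 95% identity over at least 50% of the transcript were found, the best of them at or under 0.633 in every library. For Ndufb2 no such copy was found among the GENCODE transcripts.

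Over the 100 genes, the order control 3, SUV-OE 2, SUV-OE 3, control 4 from lowest to highest was the most frequent, in 35 genes, and the order SUV-OE 2, SUV-OE 3, control 3, control 4 was next, in 24.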
